A study of Mus musculus with 2 samples.

Results

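The 50 genes described here carry newly made proteins into the endoplasmic reticulum (ER), cut and glycosylate them there, and move them on to the Golgi. They were chosen by name as components of this machinery, with earlier results of the same arrays known, and their probes were found through the RefSeq accession printed beside each spot. All 50 of the 22911 genes with a named probe were found, on 76 probes, and 49 were measured on both arrays. Pancreas RNA of wild-type (WT) and of Nrdc-cKO male C57BL/6 mice aged 5 weeks was profiled, on 1 array each. The Nrdc-cKO genotype is Ptf1a-Cre; Nrdcflox/flox, in which Cre recombinase deletes the loxP-flanked alleles of Nrdc, the gene of the peptidase nardilysin. Cre is made from Ptf1a, which is active early in the pancreas and later in acinar cells. The labels give no Cre and no loxP allele for WT, so the deletion and the presence of Cre cannot be told apart. They do not say whether an RNA sample came from 1 animal or a pool.

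With 1 array a group nothing shows the spread between animals, so no test was run and every difference below describes these arrays. A level is the log2 of the background-corrected signal minus the array's own 75th percentile, and a difference is the Nrdc-cKO level minus the WT level, averaged over the probes of a gene that were well above background on both arrays. A gene is counted as lower or higher when its difference is at least 1 on the log2 scale, which is 2-fold. The only error at hand is that between repeat spots. The Sec61g probe printed 10 times had differences from -0.83 to -0.74 over its spots, with an SD of 0.034. This leaves out animal, dissection and labelling, and also the choice of probe, as the other Sec61g probe gave -1.15.

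Nrdc itself had a level of 1.93 (WT) and -1.28 (Nrdc-cKO) on its 1 probe, and the labels do not say which part of the gene is deleted. Acinar cells make up most of the gland, and all 15 acinar markers checked were well above background on both arrays. Well above background were 46.3% (WT) and 60.3% (Nrdc-cKO) of the non-control spots, and no spot was saturated. Before scaling, the median of the 13001 genes measured on both arrays was brighter on the Nrdc-cKO array by 1.5 (log2). The scaling subtracts the 75th percentiles, 6.15 (WT) and 7.83 (Nrdc-cKO), and leaves the median of these genes at -0.18. A gene given as lower is thus lower relative to these percentiles. A difference between -0.18 and 0 lies above the median of all genes.

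A secreted protein starts with a signal peptide, which the signal recognition particle (SRP) binds as it leaves the ribosome. The ribosome docks on the SRP receptor and feeds the chain through the Sec61 channel, where signal peptidase cuts the signal off and the oligosaccharyltransferase adds N-glycans. Folded cargo leaves the ER in COPII-coated vesicles, helped by cargo receptors of the p24 and lectin families, while COPI-coated vesicles and the KDEL receptors bring ER proteins back. Acinar cells of the pancreas are known for an unusually large rough ER and for the amount of digestive enzyme they pass along this route.

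Of the 28 chosen genes of translocation and glycosylation, 21 were at least 2-fold lower in Nrdc-cKO after each array's 75th percentile was subtracted. The median of all genes then stood at -0.18, not at 0. With spike-in scaling, though, 44 of the 49 genes were above 0, and the median of all genes was 1.71. At least 2-fold higher were then 18 of the 49, against 79.8% of all genes. Of the 4 chosen COPI and Arf genes 0 were at least 2-fold lower, too few genes to set apart from the share among all genes. Of the 49 genes, 28 were at least 2-fold lower, against 17.3% of all genes, and 0 were at least 2-fold higher, against 12.8%. The share of 17.3% stands beside each count of a role group below too. Below 0 were 46 of the 49, against 58.7% of all genes. Their median difference was -1.02, with quartiles of -1.37 and -0.67, and the median of all genes was -0.18, with quartiles of -0.75 and 0.41. Since the genes were chosen with such values known, these counts describe them and support nothing. In whole tissue, fewer cells of a type and less RNA per cell cannot be told apart. The p24 protein Tmed11, the 50th gene, was detected on the WT array only. With scaling to the spike-in controls the median of the 49 genes turned to 0.87, while that of all genes stood at 1.71. The distance between the medians was 0.84 in the scaling used here. It was 0.46 with normexp background correction and 75th percentile scaling, the smallest of the 8 scalings run. Spike-in scaling, the authors' value table and the percentile of detected probes differ from the scaling used here only by a shift of a whole array. They give the same distance of 0.84 by construction and are no separate check of it. In all 8 scalings, 39 of the 49 genes lay below the median of all genes, with the same limit. The genes just past the 2-fold limit were Ssr2 (-1.02), Kdelr1 (-1.02), Sec61a1 (-1.01) and Srp19 (-1.0), and the nearest on the other side were Sec61g (-0.96) and Tmed2 (-0.93). Of the 23 genes with more than 1 probe on both arrays, 8 had probes on both sides of the limit.

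**Figure D1:**
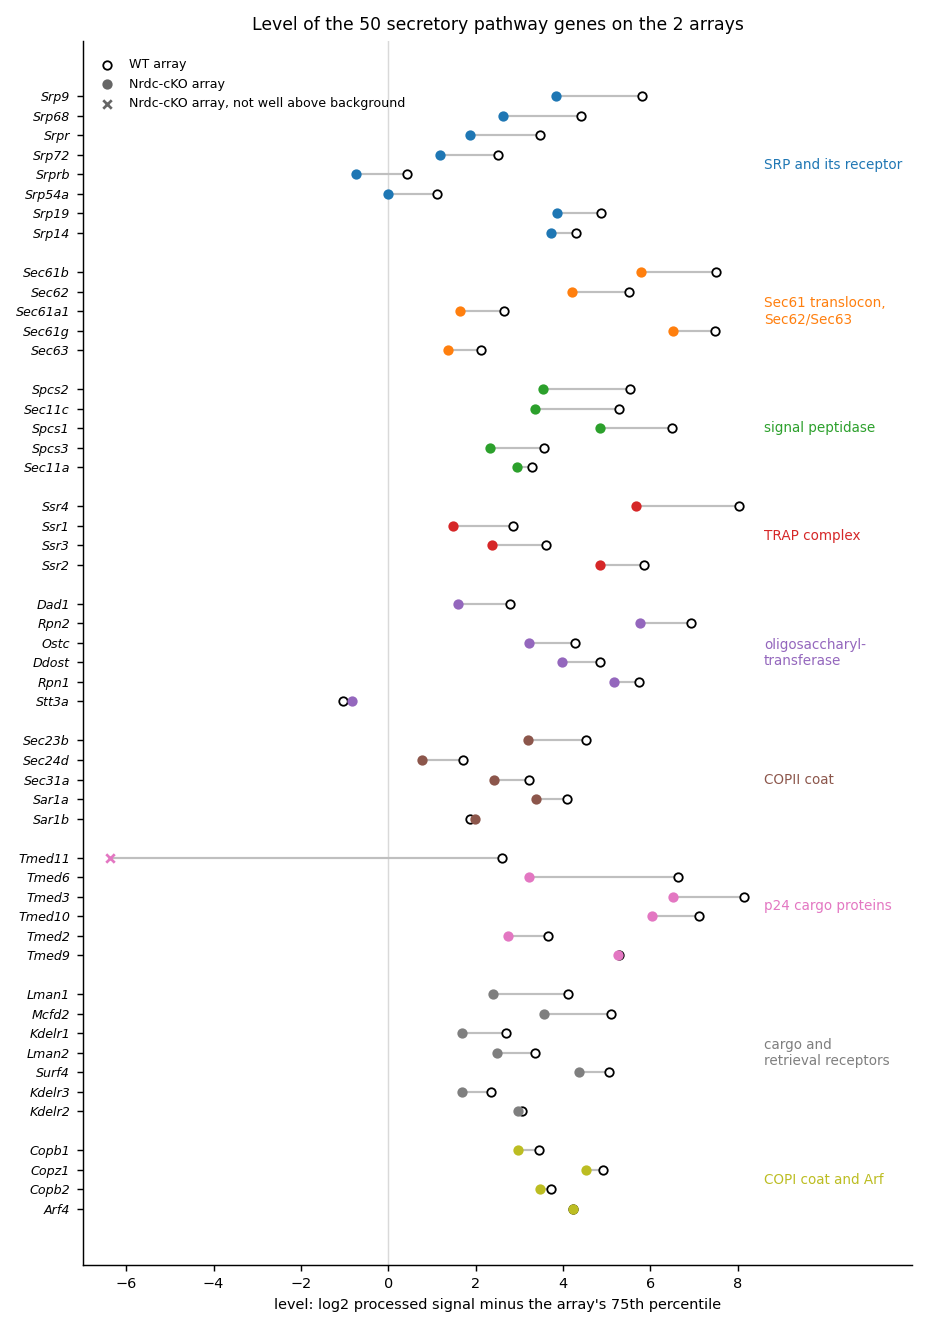
Level of each of the 50 genes on the WT array (open circles) and the Nrdc-cKO array (filled circles), as log2 processed signal minus the array's 75th percentile, grouped by role. The filled circle lies left of the open circle for 46 of the 49 genes measured on both arrays, and the cross marks Tmed11, which was not well above background on the Nrdc-cKO array. With spike-in scaling 44 of these 49 differences are above 0, and the median of all genes is 1.71.

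The SRP and its receptor were lower in 7 of 8 genes, with a median of -1.25. Srp9, which with Srp14 forms the end of the particle that slows translation, had levels of 5.81 (WT) and 3.83 (Nrdc-cKO), a difference of -1.98 (3.94-fold lower), and its probes gave -1.98 each. Its partner Srp14 stood at 4.30 and 3.73, a difference of -0.57, the smallest of the group. Partners of a heterodimer thus differed by unequal amounts on these arrays. Srp68 (4.41 and 2.63, -1.79) and Srp72 (2.52 and 1.17, -1.35), which form the other protein pair of the particle, were both past 2-fold. So was Srp19 (4.87 and 3.87, -1.0), which binds the SRP RNA. Srp54a, the GTPase that holds the signal peptide, had levels of 1.11 and -0.01, a difference of -1.13, with its 3 probes between -1.18 and -1.04. The near-identical copies Srp54b (-0.61) and Srp54c (-1.22) can share its signal, so these values are uncertain. The receptor subunits that dock the particle on the ER are Srpr (3.46 and 1.88, -1.59) and Srprb (0.42 and -0.73, -1.15), and the Srprb probes gave -1.44 and -0.86, on both sides of the limit.

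The Sec61 channel was lower in 3 of its 5 genes counted with Sec62 and Sec63, with a median of -1.01. Sec61b, a small subunit of the channel, had levels of 7.5 (WT) and 5.79 (Nrdc-cKO), a difference of -1.71, and its probes gave -1.72 and -1.70. The pore subunit Sec61a1 stood at 2.64 and 1.64, with its 3 probes between -1.14 and -0.82. Sec61g, the other small subunit, missed the limit at -0.96, with levels of 7.47 and 6.51, but its probes gave -1.15 and -0.78, on both sides of the limit. Sec62, which helps small precursors into the channel, had levels of 5.5 and 4.22, a difference of -1.29. Sec63, which recruits the ER chaperone BiP to the pore, had the smallest difference of the group at -0.76, with levels of 2.11 and 1.36.

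Signal peptidase was lower in 4 of 5 genes and had a median of -1.64. This was the lowest of the role groups in the scaling used here. The SRP group stood lower with quantile scaling, at -1.18 against -1.10, and slightly lower with loess scaling, at -1.085 against -1.083. Its accessory subunit Spcs2 had levels of 5.54 (WT) and 3.55 (Nrdc-cKO), a difference of -1.99 (3.98-fold lower). Spcs1, another accessory subunit, stood at 6.49 and 4.84 (-1.64), and Spcs3, which is needed for cleavage, at 3.58 and 2.33 (-1.24). The catalytic subunits, which take each other's place in the complex, differed. Sec11c stood at 5.29 and 3.36, a difference of -1.93. Sec11a stood at 3.28 and 2.94, a difference of -0.34, with its probes at -0.39 and -0.29. In unscaled signal the Sec11c probe had 2764 (WT) and 2328 (Nrdc-cKO), while the Sec11a probes had 1175 and 403 on WT and 2872 and 1062 on Nrdc-cKO.

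The translocon-associated protein complex (TRAP), which sits beside the channel and helps some signal peptides to enter, was lower in all 4 of its genes, with a median of -1.31. Ssr4, its delta subunit, had the largest difference of the translocation genes. It had levels of 8.04 (WT) and 5.67 (Nrdc-cKO), a difference of -2.37 (5.15-fold lower), and its probes, named for different RefSeq transcripts, gave -2.37 and -2.36. The processed signal of these probes was 22386 and 15437 in WT and 13970 and 9617 in Nrdc-cKO, so Ssr4 was dimmer on the Nrdc-cKO array before any scaling too. The other subunits were nearer the limit, with Ssr1 at 2.86 and 1.49 (-1.37), Ssr3 at 3.62 and 2.38 (-1.24) and Ssr2 at 5.86 and 4.84 (-1.02). The Ssr2 probes gave -1.12 and -0.92, on both sides of the limit.

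The oligosaccharyltransferase was lower in 3 of 6 genes, with a median of -0.97. Dad1, a small subunit, had levels of 2.78 and 1.6, a difference of -1.18, with probes at -1.51 and -0.85, on both sides of the limit. The probe at -1.51 was dim, with signals of 58.7 (WT) and 66.3 (Nrdc-cKO), and the other had 4020 and 7181. Rpn2, a large subunit, stood at 6.92 and 5.77 (-1.16), and Ostc, which joins the enzyme to the Sec61 channel, at 4.27 and 3.22 (-1.05). Ddost (-0.88) and Rpn1 (-0.55) did not reach the limit. Stt3a, the catalytic subunit that acts on chains still being made, had levels of -1.03 (WT) and -0.82 (Nrdc-cKO), a difference of 0.21, the highest of the 49 genes in the scaling used here. Its difference was -0.10 with normexp and 75th percentile scaling, and Tmed9 stood above it with loess (0.50 against 0.28) and quantile scaling (0.46 against 0.17).

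**Figure D2:**
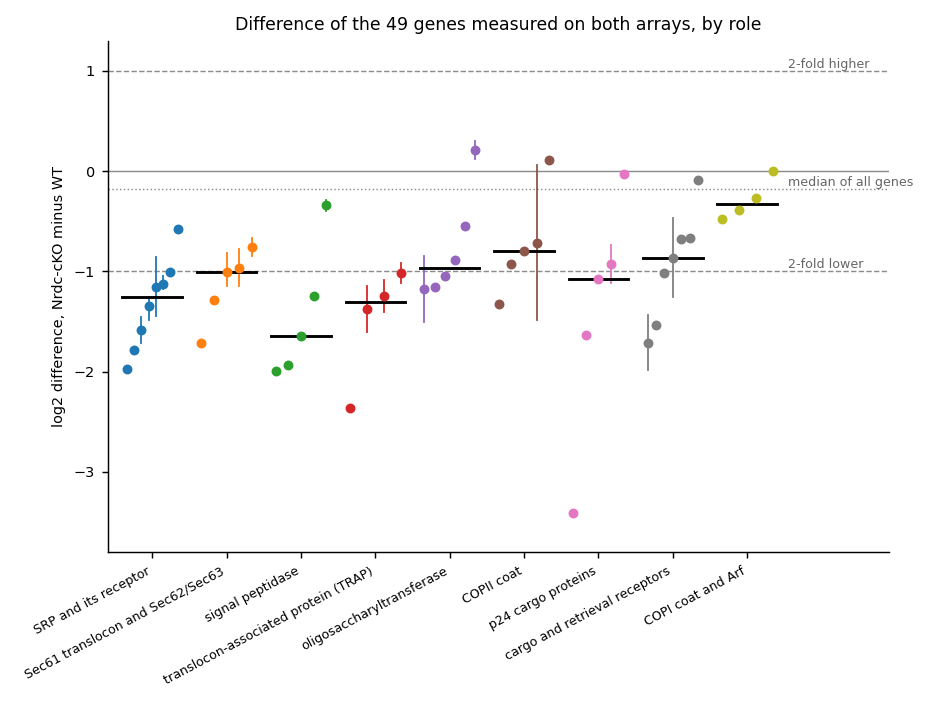
Log2 difference, Nrdc-cKO minus WT, of the 49 genes measured on both arrays, grouped by role. Points are genes, vertical lines span the probes of a gene, short black bars are group medians, from -1.64 for signal peptidase to -0.33 for the COPI coat and Arf4, and the dotted line is the median of all genes at -0.18. All 9 group medians are above 0 with spike-in scaling.

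Genes of ER-Golgi traffic were lower in 7 of the 21 measured, and their median was -0.80, while those of translocation and glycosylation were lower in 21 of 28, with a median of -1.17. Among all genes 17.3% were lower. In the COPII coat only Sec23b passed the limit. Sec23b, which activates the GTPase of the coat, had levels of 4.54 and 3.21, a difference of -1.33. Its cargo-binding partner Sec24d was at -0.92 and the outer cage protein Sec31a at -0.80. Sar1b, a GTPase that starts coat assembly and is known for chylomicron export in the gut, stood at 1.88 and 1.99, a difference of 0.11. Its relative Sar1a had a mean difference of -0.71, but its probes disagreed, at -1.48 and 0.06, the widest range of any of the 49 genes. The Sar1a probe with the smaller signal had 611 (WT) and 702 (Nrdc-cKO) and the other 2406 and 8047, so the direction of Sar1a is not settled by these arrays.

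The p24 cargo proteins, which span the membrane of transport vesicles and help load cargo, held the lowest value of the set and also a gene close to 0. Tmed11 had a processed signal of 433 (WT) and 2.75 (Nrdc-cKO), and on the latter array its spot was not well above background. Set against the lowest signal that was well above background there, Tmed11 was at least 111-fold higher on the WT array, a bound that rests on 1 probe. This bound was 29.9-fold with spike-in scaling, and 17.6-fold and 13.2-fold with normexp background correction followed by 75th percentile or quantile scaling. The measured levels were 2.61 and -6.37. Tmed6 had levels of 6.63 (WT) and 3.22 (Nrdc-cKO), a difference of -3.41 (10.6-fold lower), and 0.51% of all genes had a lower value. Its probes gave -3.44 and -3.39, with signals of 16843 and 2925 on WT and of 5003 and 898 on Nrdc-cKO. Tmed6 kept its direction in all 8 scalings, and came nearest to 0 with the spike-in controls, at -1.52.

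The other p24 proteins differed less. Tmed3 had levels of 8.15 and 6.52 (-1.64), and Tmed10, which forms a complex with Tmed2, 7.11 and 6.04 (-1.07). Tmed2 was at -0.93, with its probes at -1.12 and -0.74. Tmed9 stood at 5.29 and 5.27, a difference of -0.02. The family thus spread widely, and Tmed9 lay above the median of all genes in all 8 scalings.

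Cargo and retrieval receptors were lower in 3 of 7 genes, against 17.3% of all genes, with a median of -0.86. Lman1 and Mcfd2 form a receptor for coagulation factors and other glycoproteins, and both were past 2-fold. Lman1 had levels of 4.12 and 2.40, a difference of -1.71, with its probes at -1.99 and -1.44. Mcfd2 had levels of 5.10 and 3.57, a difference of -1.53, with both probes at -1.53. Of the KDEL receptors, which return escaped ER chaperones, Kdelr1 had levels of 2.71 and 1.69 (-1.02) and Kdelr2 of 3.06 and 2.98 (-0.09), and Kdelr3 was at -0.67. The lectin Lman2 was at -0.86, with probes at -1.26 and -0.47, and the cargo receptor Surf4 at -0.67.

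None of the 4 COPI and Arf genes passed 2-fold, and their median was -0.33. With 17.3% of all genes at least 2-fold lower, a count of 0 of 4 does not set them apart. Other coat subunits, which are not among the 50 genes, stood lower, with Copz2 at -2.37, Cope at -1.33 and Arcn1 at -0.89, or nearer, with Copg2 at -0.53, Copg1 at -0.43 and Copa at -0.20. Copb1, a subunit of the COPI coat, stood at 3.45 and 2.97, a difference of -0.48, Copz1 at -0.39 and Copb2 at -0.26. Arf4, a small GTPase of Golgi membranes, stood at 4.23 and 4.24, a difference of 0.00. The group median was above 0 with spike-in scaling (1.57), loess (0.09), quantile scaling (0.02), normexp followed by the 75th percentile (0.16) or quantile scaling (0.01), and in the authors' value table (0.17).

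Signal brightness was looked at beside these values, because bright genes as a whole stood lower. The 49 genes had a median log2 signal of 10.7 over both arrays and all genes one of 7.73. Among the 1534 genes with a log2 signal from 10 to 12 the median difference was -0.34, and the 22 secretory pathway genes in that range had a median of -0.97, with 18 of them below -0.34. From 12 to 14 the medians were -0.69 for 387 genes and -1.07 for 9 of the set, and from 8 to 10 they were -0.15 for 3715 genes and -1.01 for 14 of the set. With loess scaling, which levels the difference along the signal, the median of the 49 genes was -0.67 and 14 were at least 2-fold lower, against a median of 0.02 and a share of 13.1% for all genes.

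**Figure D3:**
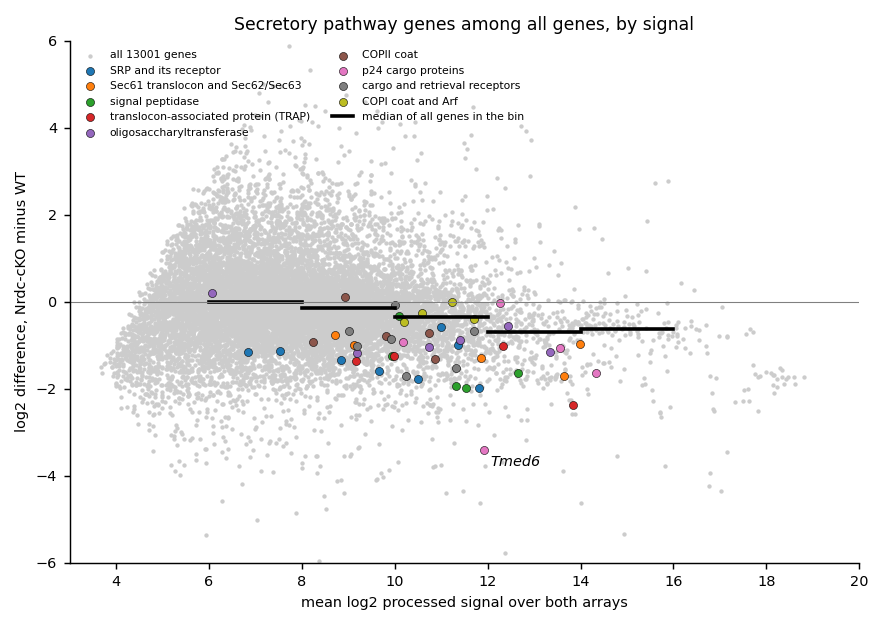
Log2 difference, Nrdc-cKO minus WT, against the mean log2 processed signal of both arrays, for all 13001 genes (grey, 6 of them outside the plotted range of 6 either way) and the 49 secretory pathway genes (coloured by role). Black bars are medians of all genes in bins of signal and fall from 0.00 at a signal of 6 to 8 to -0.69 at 12 to 14, and most coloured points lie under the bar of their bin. With spike-in scaling every point moves up by 1.89.

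Markers of the cells in the gland differed between the same arrays. On the Nrdc-cKO array all 15 acinar markers were past 2-fold lower (median -2.01), while 8 were with loess (median -1.20), 7 with quantile scaling (-0.73) and 3 with spike-in scaling (-0.11). Their summed scaled signal was 46780 (WT) and 10253 (Nrdc-cKO). Of the 12 islet markers, 11 were measured and all 11 were at least 2-fold higher, with a median of 3.93. Macrophage markers were higher in 9 of 10 (median 2.35) and stellate and fibroblast markers in 8 of 8 (median 1.96). Of the plasma and B cell markers, which include cells that secrete antibody through the same machinery, 2 of 8 were measured on both arrays, and the other 6 were well above background only in Nrdc-cKO. The same held for 5 of 8 fat cell markers, while of the other 3 Fabp4 stood at 2.51, Lpl at 1.05 and Lep at -1.87. Of the T cell markers Cd3e stood at -1.41, Cd4 at -0.59 and Cd3d at 0.15, and Cd3g and Lck, detected only in Nrdc-cKO, had bounds of at least 1.31-fold and 2.03-fold higher. Duct and endothelial markers had medians of 0.74 and 0.70. The part of cell makeup in the values of the secretory pathway genes was not tested.

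The rest of the pathway was read from a list of 133 names, with 131 genes on the arrays and 129 measured on both. Of these, 29 were at least 2-fold lower and 1 was higher, with a median of -0.50, beside shares of 17.3% lower and 12.8% higher among all genes. The groups had medians of -0.62 for translocation and membrane insertion (6 of 24 lower), -0.34 for N-glycan assembly and trimming (8 of 35), -0.21 for COPII and cargo adaptors (5 of 24), -0.46 for COPI and Arf regulators (3 of 14) and -0.67 for tethers, Rabs and SNAREs (7 of 32). The lowest were Arfgap3 (4.96 and 2.59, -2.37), which stimulates Arf GTP hydrolysis on Golgi membranes, the COPI subunit Copz2 (4.96 and 2.59, -2.37), the SNARE Ykt6 (3.91 and 1.67, -2.24), the Golgi stacking protein Gorasp2 (2.98 and 0.82, -2.16) and Magt1 (4.02 and 2.08, -1.94), a subunit of the Stt3b form of the oligosaccharyltransferase. The highest were the p24 family member Tmed8 (-1.19 and 0.05, 1.25), Cnih4 (2.36 and 3.33, 0.97), Sec61a2 (-1.15 and -0.27, 0.88), Stt3b (2.63 and 3.43, 0.80) and Sec23a (-1.87 and -1.10, 0.77). The median of the 129 genes was 1.4 with spike-in scaling and 0.00 when the authors' value table was used. Sec31b was detected in Nrdc-cKO only, so close to the lowest detected signal that it has no direction.

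Several steps of the pathway are served by more than 1 related gene, and 17 pairs of them were compared after their values had been seen. A difference between genes on the same arrays does not depend on a shift of a whole array. In 6 of the 17 pairs the related genes stood at least 2-fold apart, and these 6 kept their order in all 8 scalings. Spike-in scaling, the authors' value table and the percentile of detected probes must give the same distances as the scaling used here. They are no separate check of the order. Sec23b and Sec23a, alternative COPII subunits, stood at -1.33 and 0.77, a distance of -2.10 that ranged from -2.10 to -0.68 over the scalings. The Sec61 pore genes Sec61a1 and Sec61a2 stood at -1.01 and 0.88, a distance of -1.89 with a range from -1.89 to -0.81. Sec11c and Sec11a were -1.59 apart, with the narrow range from -1.59 to -1.47. Tmed3 and Tmed7, p24 proteins of the same subfamily, were -1.68 apart (range -1.68 to -0.99), and Lman2 and its relative Lman2l -1.31 (range -1.31 to -0.97), so both pairs came under 2-fold in another scaling. So did Sec23b and Sec23a, and the Sec61 pore genes. In the COPI coat the order was the other way, with Copz1 at -0.39 and Copz2 at -2.37, a distance of 1.98. Sec24d and Sec24b did not keep their order, with a distance of 0.10 that ranged from -0.28 to 0.18, and Arf4 and Arf5 were 0.04 apart.

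**Figure D4:**
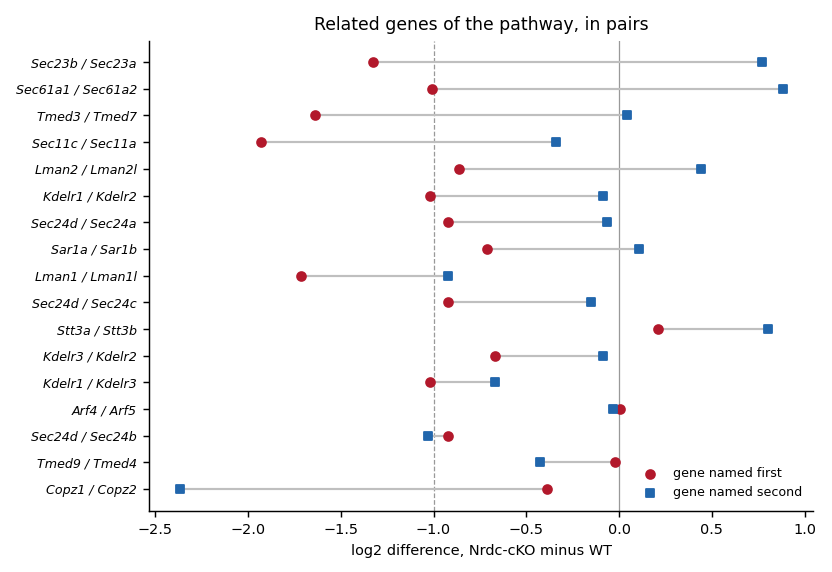
Log2 difference, Nrdc-cKO minus WT, of related genes in 17 pairs, with the gene named first as a red circle and the gene named second as a blue square. The pair Sec23b and Sec23a is the widest, from -1.33 to 0.77, and spike-in scaling moves both genes of a pair right by 1.89. Sec23a and Sec61a2 rest on 1 dim probe each.

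Promoters were read to see which letters the genes share that the choice did not use. The RefSeq promoter table of build GRCm38.p6 holds 250 bases before and 50 after the start, and 39 of the 50 genes have an entry there, with 42 promoters among 32851. Each motif was searched on both strands. The full ER stress response element, CCAAT and CCACG with 9 bases between them, was in 0 of the 39 genes and in 0.137% of all genes with a promoter, and its second form, ATTGG and CCACG with 1 base between them, in 0 and in 0.0444%. The core CCACG alone was in 28 of the 39 genes (71.8%) and in 35.5% of all genes, or 32.8% of all promoters. It was in 12 of the 20 genes at least 2-fold lower and in 16 of the other 19. Promoters of the set had a median GC content of 58.8%, against 52.7% for all, and among all promoters with at least 60% GC the share with CCACG was 55.2%, with 17 of 20 in the set. CCACG holds a CG pair, and the median number of CG pairs was 23 in promoters of the set and 7 in all. The shares were not matched for CG pairs, so the excess of CCACG cannot be told apart from this difference in makeup. The E-boxes CATATG and CAGCTG were in 2 genes each, and in 4.48% and 18.3% of all genes.

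The element TGACGTGG, known as the core that binds the stress factors Atf6 and Xbp1, was in 4 of the 39 genes and in 0.714% of all genes, or 0.676% of all promoters. It contains CCACG on the other strand. All 4 genes are in vesicle traffic and none was past 2-fold, with Sec24d at -0.92, Kdelr3 at -0.67, Copb1 at -0.48 and Copb2 at -0.26. In each the motif begins within 30 bases before the start. The 60 bases around it are shown for these genes, picked after the search, 5′ to 3′ on the gene's strand with the element in capitals, which reads as its reverse complement in Copb1, Copb2 and Kdelr3. A match is a run of letters and not a bound site.

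Sec24d, chr3:123267444-123267503, strand +: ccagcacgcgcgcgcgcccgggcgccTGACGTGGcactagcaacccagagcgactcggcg

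Kdelr3, chr15:79516352-79516411, strand +: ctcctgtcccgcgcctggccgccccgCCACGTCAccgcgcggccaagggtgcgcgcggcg

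Copb1, chr7:114254675-114254734, strand -: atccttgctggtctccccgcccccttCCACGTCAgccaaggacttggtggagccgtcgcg

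Copb2, chr9:98563698-98563757, strand +: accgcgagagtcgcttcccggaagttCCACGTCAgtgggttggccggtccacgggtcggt

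The 250 bases before the start are also shown for the 4 lowest measured genes with a table entry, Tmed6 (-3.41), Ssr4 (-2.37), Spcs2 (-1.99) and Srp9 (-1.98), with CCACG on either strand and CAGCTG in capitals. TGACGTGG is in none of them. As only 4 of the 39 genes hold it, its absence here says nothing about a link with the differences. CCACG is there 1 time in Tmed6, Spcs2 and Srp9 and is not in the Ssr4 window, CAGCTG is there 1 time in Srp9, and the GC content is 49.6% in Tmed6, 57.2% in Ssr4, 61.6% in Spcs2 and 60% in Srp9.

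Tmed6, chr8:107065645-107065894, strand -: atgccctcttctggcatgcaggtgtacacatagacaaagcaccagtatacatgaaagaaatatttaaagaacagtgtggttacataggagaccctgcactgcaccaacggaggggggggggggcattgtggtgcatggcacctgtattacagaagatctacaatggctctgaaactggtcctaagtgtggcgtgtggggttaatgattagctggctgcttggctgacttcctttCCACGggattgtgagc

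Ssr4, chrX:73786773-73787022, strand +: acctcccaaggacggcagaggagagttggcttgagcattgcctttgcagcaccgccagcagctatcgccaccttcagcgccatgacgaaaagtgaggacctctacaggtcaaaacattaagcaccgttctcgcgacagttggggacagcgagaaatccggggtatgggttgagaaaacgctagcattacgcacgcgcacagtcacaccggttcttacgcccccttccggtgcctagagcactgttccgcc

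Spcs2, chr7:99858884-99859133, strand -: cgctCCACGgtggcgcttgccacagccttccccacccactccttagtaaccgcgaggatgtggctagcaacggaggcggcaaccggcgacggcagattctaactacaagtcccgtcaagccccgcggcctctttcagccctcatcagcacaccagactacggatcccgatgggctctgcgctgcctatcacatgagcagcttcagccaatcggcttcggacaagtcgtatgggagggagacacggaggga

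Srp9, chr1:182124487-182124736, strand +: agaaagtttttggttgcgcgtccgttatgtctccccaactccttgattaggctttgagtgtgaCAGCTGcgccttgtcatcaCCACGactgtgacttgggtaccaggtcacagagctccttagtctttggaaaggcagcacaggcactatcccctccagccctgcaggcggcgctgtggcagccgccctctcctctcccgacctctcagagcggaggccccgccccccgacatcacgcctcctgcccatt

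The direction of these differences rests on the scaling. Spike-in scaling uses only 8 spike-in probes, whose median log2 signals differed by -0.21 (Nrdc-cKO minus WT). It puts the median of all genes at 1.71. Under spike-in scaling 5 of the 49 genes stayed below 0, namely Tmed6 (-1.52), Ssr4 (-0.47), Spcs2 (-0.10), Srp9 (-0.09) and Sec11c (-0.04), and 18 were at least 2-fold higher, against 79.8% of all genes. These 5 were below 0 in all 8 scalings. Before scaling 41 of the 49 genes were brighter on the Nrdc-cKO array and 8 dimmer, with a median difference of 0.66 against 1.5 for all genes. Sar1b, Tmed9, Kdelr2 and Arf4 lay above the median of all genes in all 8, though scalings that differ only by a shift of a whole array must give the same answer here.

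**Figure D5:**
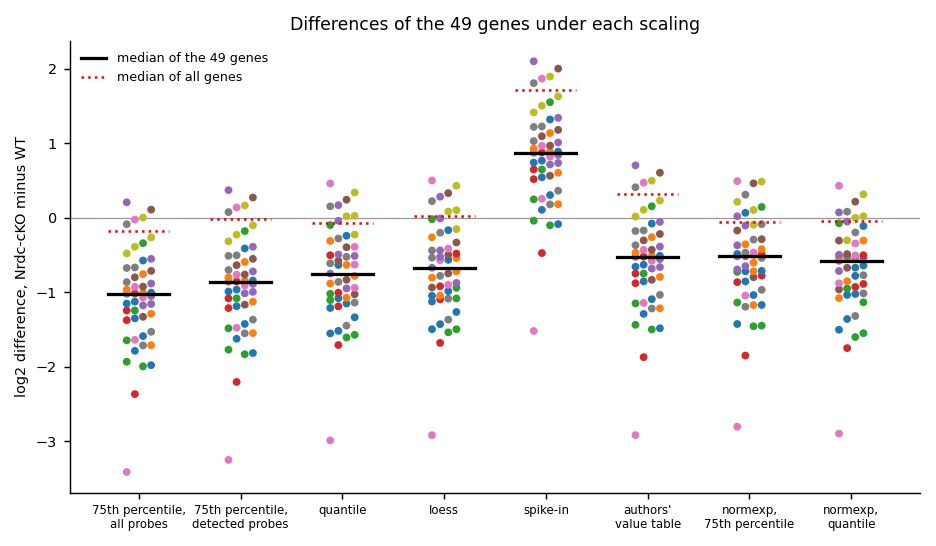
Log2 difference, Nrdc-cKO minus WT, of the 49 genes under each of 8 scalings or background corrections (points coloured by role), with the median of the 49 genes as a black bar and that of all genes as a red dotted bar. The black bar lies under the red one in all 8, from 0.46 to 0.84 apart, but above 0 with spike-in scaling.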

How the data were processed

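Total RNA of pancreas was hybridised to 1-colour Agilent arrays, per the labels. Both arrays shared a slide and a scan, per the file headers, so neither differs between the groups. The deposited scanner files hold a background-subtracted intensity per spot on a linear scale, not normalized between arrays, together with spot and local background intensities and flags. The headers give Agilent Feature Extraction 12.0.3.1, whereas the submitters' processing notes give 11.5.1.1. The authors' deposited value table holds this intensity multiplied by a constant, 4.37 in WT and 1.92 in Nrdc-cKO, linear and uncentred, with medians of 42.5 and 66.0. No source used here says how the constants were set.

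Outlier spots (80 in WT, 74 in Nrdc-cKO) were left out, log2 intensities were averaged per probe, and the 75th percentile of the non-control probes was subtracted. A probe counted as detected if at least 0.5 of its spots carried the well-above-background flag. The number of arrays limits the precision. Repeat spots of 286 probes had a median SD of 0.032 in the log2 difference. Probes were named by accession through a GRCm38.p6 gene table, with 91.9% of 35885 matched. The array design names another build, so no probe coordinates are given, and the printed promoter coordinates are those of GRCm38.p6. A gene seen on 1 array only got a bound, its level there over the higher of its own level and the lowest detected level on the other array.

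The genes, role groups and lists were chosen with earlier results of these data known. By rule the text names genes past 2-fold or seen on 1 array, the highest and lowest of each role group, and the 5 highest and 5 lowest other pathway genes. Other genes named, the pairs and the printed promoters were chosen after their values were seen. Alternatives were other scalings, normexp correction with an offset of 50 (limma 3.58.1, R 4.3.3), other filters and thresholds, and the brightest probe of a gene. The code was tested on simulated data.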

Additional observations from a re-analysis of the deposited data

How the results depend on the processing

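No paired analysis was possible because, with 1 array a group, no pairs exist, and no replicate could be left out. The median of the 49 genes, -1.02, was -0.86 when detected probes alone set the 75th percentile, -0.75 with quantile scaling, -0.67 with loess, -0.52 in the authors' value table, -0.52 and -0.58 with normexp followed by 75th percentile or quantile scaling, and 0.87 with spike-in scaling. Genes at least 2-fold lower, 28 against 17.3% of all genes, numbered 18 with quantile scaling (all genes 14.8%), 14 with loess (13.1%), 12 in the value table (8.26%), 11 and 12 with normexp followed by 75th percentile or quantile scaling (8.81% and 6.51%), and 1 with spike-in scaling (0.885%). At least 4-fold lower in the scaling used here were 2 of the 49 genes, beside 390 of all 13001 genes. A count of 2 does not set the 49 genes apart from all genes at this limit. Genes at least 2-fold higher, 0, numbered 18 with spike-in scaling. No filter on dim probes, bright probes only and the brightest probe of a gene left 29, 25 and 27 lower, against 35.0%, 18.7% and 17.7% of all genes, and detected probes alone setting the percentile left 19, against 13.4%. With spike-in scaling, which adds 1.89 to every gene, group medians turned to 0.64 for the SRP, 0.89 for the Sec61 channel, 0.25 for signal peptidase, 0.58 for TRAP and 0.82 for p24 proteins, and 23 of the 28 lower genes turned above 0: Srp19 0.89, Srp54a 0.77, Srp68 0.11, Srp72 0.54, Srpr 0.30, Srprb 0.74, Sec61a1 0.89, Sec61b 0.18, Sec62 0.60, Spcs1 0.25, Spcs3 0.65, Ssr1 0.52, Ssr2 0.88, Ssr3 0.65, Rpn2 0.74, Dad1 0.72, Ostc 0.84, Sec23b 0.56, Tmed3 0.25, Tmed10 0.82, Kdelr1 0.87, Lman1 0.18 and Mcfd2 0.36. No called gene turned in another setting. Loess gives no bound for Tmed11. Signal over background limits Tmed11, which has only a bound, and Stt3a, which drops out with bright probes only. With that filter the differences of Srprb and Dad1 came to -0.86 and -0.85. Where no reason is given the cause was not tested.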
